A study of Rattus norvegicus with 3 samples.

Results

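The zinc finger protein genes were the genes with names that start with Zfp or Znf and a digit and that the authors' H3K4me2 peak lists of rat liver name in a class other than intergenic. By this rule 91 of the 8163 gene names in those classes were members, all of them with Zfp names. The members were therefore chosen from the peaks themselves, and their counts are descriptions. The tissue was liver of female Sprague-Dawley rats given olanzapine (3 mg/kg), clozapine (20 mg/kg) or vehicle by mouth 2 times a day for 9 weeks, with 12 animals per group. Drugs were given in sweet cookie dough, and clozapine was later given with a syringe because the rats avoided the pellets. There was 1 library of olanzapine, 1 of clozapine and 1 of vehicle, so nothing measures the spread between animals and no test between the drugs was made. Peak lists of both drugs were used, and the vehicle library was not analysed here.

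Most proteins with these names carry arrays of Krüppel-type C2H2 fingers, small loops held by a zinc ion that read DNA bases, and the array is often encoded by a single long last exon. Many of them also carry a KRAB domain, which recruits the co-repressor KAP1 (Trim28) and with it the histone methyltransferase Setdb1, and their genes often stand side by side in clusters. A smaller set has CCCH fingers, which bind RNA. H3K4me2 is a histone mark found at active promoters and, more broadly, at enhancers and in the first part of transcribed genes.

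The olanzapine list held 7128 peaks, of which 5323 were outside the intergenic class, and the clozapine list held 19449, of which 9290 were outside it. All 14 hepatocyte marker genes examined had such a peak in each library. Of markers of other liver cells, the olanzapine library had none and the clozapine library had 4 of 7 endothelial, 3 of 6 stellate, 1 of 6 Kupffer cell and 1 of 6 lymphocyte genes. For all 18539 curated protein-coding genes the share with such a peak was 26.8% (olanzapine) and 28.2% (clozapine). The groups of other liver cells hold only 6 or 7 genes, and whether their counts differ from these shares was not tested. The study also gives far fewer aligned reads for the clozapine library. What part other liver cells or read numbers had in the results was not tested.

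The promoters of 5 members are shown as examples picked by hand. The first 4 of these genes had an olanzapine peak in the 5' UTR class, as did other members not shown. The last had the clozapine peak with the highest fold enrichment of all members. Zfp295, Zfp423 and Zfp706 were also picked but had no promoter in the source used. Each line gives the 120 bases before the gene start from RefSeq (GRCr8), 5' to 3', with every CG in capitals. The peaks are on Rnor_6.0, so their place relative to these bases cannot be given.
Zfp317, chr8:25867558-25867677 (plus strand): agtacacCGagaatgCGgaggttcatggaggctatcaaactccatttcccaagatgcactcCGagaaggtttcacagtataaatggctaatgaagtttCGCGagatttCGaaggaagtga
Zfp444, chr1:76761451-76761570 (minus strand): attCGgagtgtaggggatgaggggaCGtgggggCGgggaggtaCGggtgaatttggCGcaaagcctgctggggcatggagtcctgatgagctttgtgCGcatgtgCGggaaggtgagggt
Zfp143, chr1:173543764-173543883 (plus strand): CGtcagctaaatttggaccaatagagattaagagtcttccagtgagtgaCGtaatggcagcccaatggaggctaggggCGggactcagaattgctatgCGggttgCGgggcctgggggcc
Zfp52, chr1:70008065-70008184 (plus strand): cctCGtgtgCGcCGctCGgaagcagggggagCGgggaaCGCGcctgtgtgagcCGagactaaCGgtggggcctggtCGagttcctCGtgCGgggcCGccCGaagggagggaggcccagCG
Zfp386, chr6:143109488-143109607 (plus strand): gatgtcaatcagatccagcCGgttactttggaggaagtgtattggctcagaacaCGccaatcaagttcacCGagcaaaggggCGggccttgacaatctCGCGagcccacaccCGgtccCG
The number of CG in the 120 bases was 6 in Zfp317, 7 in Zfp444, 5 in Zfp143, 15 in Zfp52 and 8 in Zfp386.

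The share of zinc finger genes with an olanzapine peak was close to that of genes at large, and the share with a clozapine peak was smaller. Of the 268 curated protein-coding genes with a Zfp or Znf symbol in the names table, 70 (26.1%, 95% Wilson interval 21.2 to 31.7) had a peak outside the intergenic class in the olanzapine library, against 26.8% of all 18539 curated genes. In the clozapine library 45 had such a peak (16.8%, 12.8 to 21.7), against 28.2% of all curated genes. The clozapine share was the lower also among peaks longer than 200 bp, with 19 zinc finger genes (7.09%, 4.59 to 10.8) against 14.3% of the other curated genes, and for olanzapine the 2 shares were 25.4% and 25.8%. The intervals cover the counting of genes only. Among the 8163 names in either list, 71 of the 91 members were in the olanzapine list (78.0%), against 62.0% of all names, and 46 were in the clozapine list (50.5%), against 65.6%. Both lists named 26 members (28.6%), against 27.6% of all names. These 26 were 36.6% of the olanzapine members and 56.5% of the clozapine members, whereas for other genes the shared names were 44.6% of the olanzapine and 41.9% of the clozapine names. A further 45 members were named for olanzapine alone and 20 for clozapine alone. The order of the libraries turned round with a −log10 q of at least 5, where 6 members had an olanzapine and 11 a clozapine peak. With intergenic peaks counted the numbers were 117 and 109. No values of all genes at these settings stand beside them, so whether the order also turned for genes at large is not known.

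**Figure D1:**
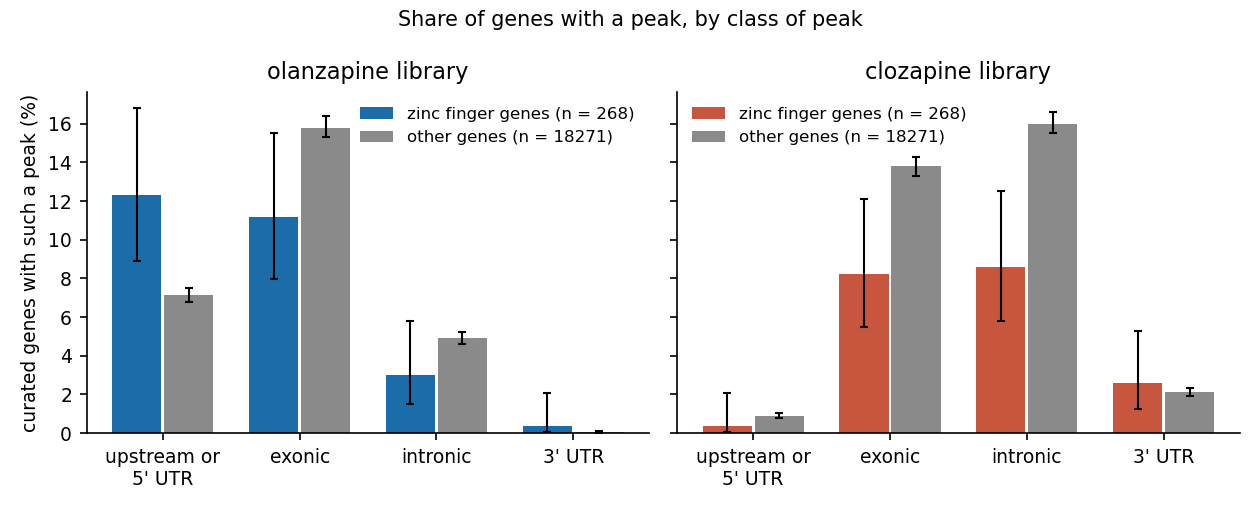
Percent of curated protein-coding genes with a peak of each class, in the olanzapine library (left panel) and the clozapine library (right panel), for zinc finger genes (colour, n = 268) and other genes (grey, n = 18271). Bars are shares and lines are 95% Wilson intervals. The zinc finger share was 12.3% against 7.14% for upstream or 5' UTR peaks of olanzapine, and 8.58% against 16.0% for intronic peaks of clozapine.

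The class of peak differed by library. In the olanzapine library, zinc finger genes with a peak at the 5' end of the gene (upstream or 5' UTR) were 33 of the 268 (12.3%, 8.90 to 16.8), against 7.14% of other curated genes (6.78 to 7.52). Exonic olanzapine peaks were found in 30 (11.2%, 7.95 to 15.5), against 15.8% of other genes. In the clozapine library the exonic share was 8.21% (5.48 to 12.1) against 13.8%, and the intronic share 8.58% (5.79 to 12.5) against 16.0%. A 5' end peak in the clozapine library was found in 1 of the 268 (0.373%, 0.0659 to 2.08), against 0.887% of other genes. This was Zfp605l1, which the list names by an older symbol and which is no member.

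Counted over peaks, 35 of the 75 olanzapine peaks of members were upstream or in a 5' UTR (46.7%, 35.8 to 57.8), against 24.8% of the peaks of other genes (23.6 to 26.0). A further 30 were exonic (40.0%, against 55.6%), 8 intronic (10.7%, against 18.8%) and 2 in a 3' UTR. None of the 61 clozapine peaks of members was upstream or in a 5' UTR (0%, interval 0 to 5.92, counting error only), against 1.80% in other genes. Of these 61 peaks, 29 were intronic (47.5%, against 47.9%), 25 exonic (41.0%, against 44.3%) and 7 in a 3' UTR (11.5%, 5.67 to 21.8, against 4.32%). In the clozapine library the members thus differed little from other genes in their intronic and exonic shares.

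**Figure D2:**
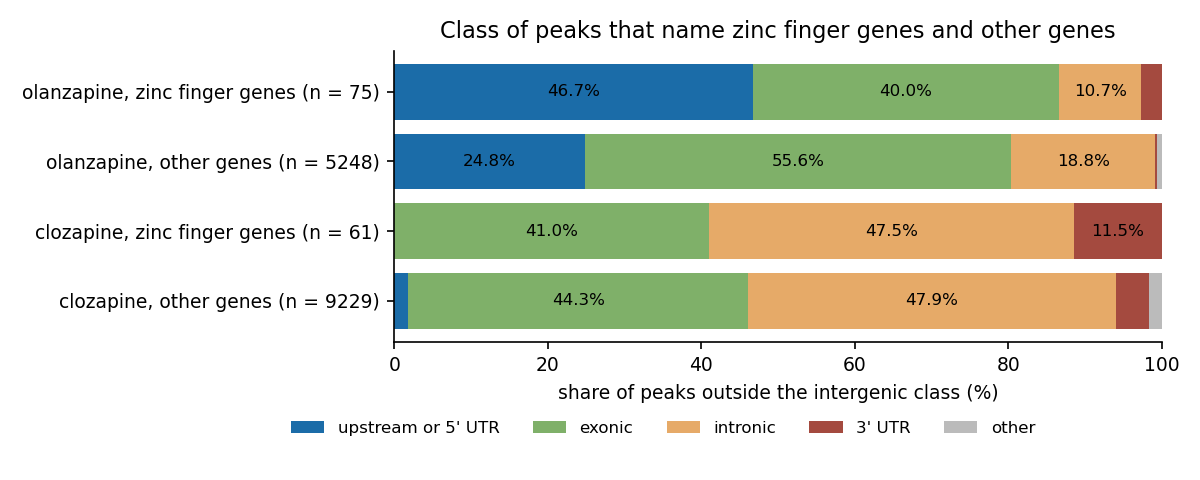
Share of peaks outside the intergenic class (%) that fall in each class, for members and for other genes in each library. Each bar is 1 set of peaks, with its number of peaks (n) beside it. The 5' end class fills 46.7% of the member peaks of olanzapine and none of those of clozapine.

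The 5' end peaks of olanzapine included the member peak with the highest fold enrichment of that library. Zfp295, now named Zbtb21, encodes a repressor with a BTB domain, and its 5' UTR peak of 947 bp on chromosome 11 (38456319 to 38457265) had a fold enrichment of 7.14 and a −log10 p of 10.60, higher in fold than 99.0% of the peaks of that list outside the intergenic class. Zfp317 (415 bp, 6.27-fold) and Zfp444 (1307 bp, 5.98-fold) followed in that class, and Zfp868 (198 bp) had 5.88-fold. In fold these peaks of Zfp317, Zfp444 and Zfp868 were above 96.7%, 94.9% and 94.0% of their list. Of these 4 genes only Zfp444 also had a clozapine peak. The other 5' UTR peaks among the 10 strongest over 200 bp were those of Zfp672 (4.79-fold), Zfp574 (5.32), Zfp142 (4.79, shared with Bcs1l) and Zfp143 (4.32). The exonic ones were Zfp513 (1157 bp, 6.07-fold), Zfp91 (2207 bp, 5.61), a ubiquitin ligase gene, and Zfp593 (422 bp, 5.46), a gene of ribosome assembly. The peaks of the upstream class lay 114 bp (Zfp51), 177 bp (Zfp496), 440 bp (Zfp266), 513 bp (Zfp800) and 777 bp (Zfp131) from the gene.

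In the clozapine library the strongest member peak was exonic. Zfp386, a Krüppel-type gene, had 1 peak of 597 bp on chromosome 6 (143915225 to 143915821) with a fold enrichment of 8.88 and a −log10 p of 16.21, above 99.4% of its list in fold, and no olanzapine peak. Zfp346, which encodes a protein that binds double-stranded RNA, followed with an intronic peak of 632 bp (6.49-fold), and its olanzapine peak was exonic (751 bp, 4.34-fold). Zfp148, a factor that binds GC-rich promoters, had an exonic peak of 1024 bp (5.04-fold) and an intronic peak of 172 bp (5.67-fold) and no olanzapine peak. The next over 200 bp were Zfp444 (intronic, 5.22-fold) and Zfp706 (3' UTR, 4.32-fold). The remaining 5 of the 10 were Zfp207, Zfp167, Zfp36, Zfp593 and Zfp592, with fold enrichments from 2.90 to 4.24. The member peaks nearest to the end of the lists were an exonic peak of Zfp36l2 for olanzapine (−log10 q 1.15, 3.44-fold) and that of Zfp91 for clozapine (1.35, 2.92-fold), where the lowest −log10 q of each list was 1.00.

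Member peaks were shorter in the clozapine library. Their lengths had a median of 473 bp for olanzapine (interval of the median 413 to 625 bp, range 196 to 3418) and 171 bp for clozapine (170 to 195, range 170 to 2568), against 616 and 172 bp for other genes. Of the clozapine member peaks, 39 of 61 were at most 200 bp long (63.9%, 51.4 to 74.8), against 59.4% in other genes, and of the olanzapine ones 2 of 75 (2.67%, against 4.52%). Peaks of 1000 bp or longer numbered 9 for olanzapine (12.0%, against 24.4% in other genes) and 4 for clozapine (6.56%, against 4.62%). Among olanzapine peaks the 5' end class was the longest by median (600 bp), ahead of the exonic (433 bp) and intronic classes (270 bp). Among the 29 intronic clozapine peaks, 24 were at most 200 bp long. The median fold enrichment of members was 4.23 for olanzapine (4.08 to 4.52, against 4.29 in other genes) and 3.59 for clozapine (3.29 to 3.85, against 3.66), each within its own list, since the lists were called separately.

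**Figure D3:**
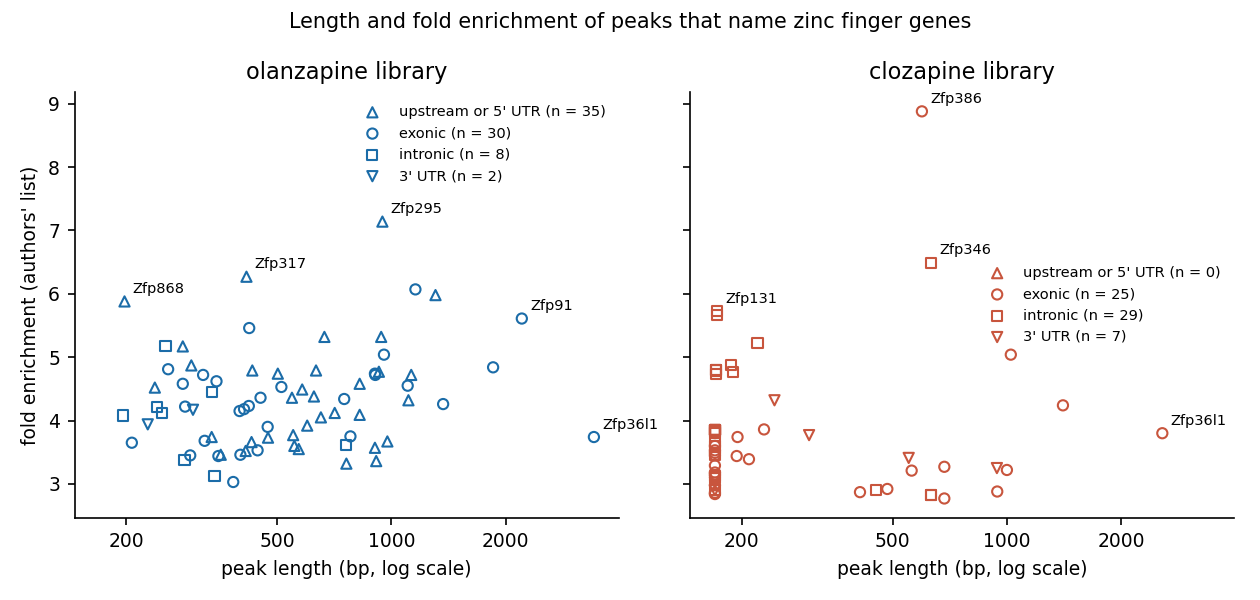
Length (bp, log scale) and fold enrichment of every peak that names a member, in the olanzapine library (left panel, 75 peaks) and the clozapine library (right panel, 61 peaks), with a marker shape per class. The clozapine peaks gather at 170 bp, and the olanzapine peaks spread from 196 to 3418 bp.

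A single value recurred among the short clozapine peaks. Of the 61 member peaks, 8 had a fold enrichment of 3.85, each 170 bp long and intronic, with a −log10 p of 7.17 or 7.18. They lay in Zfp292 and Zfp382 with 2 each and in Zfp423, Zfp523, Zfp532 and Zfp622 with 1 each, and 1 of those in Zfp382 also names Zfp566. The same fold enrichment stood at 1355 of the 19449 peaks of the clozapine list, so it was not particular to zinc finger genes. Without these peaks, 43 members had a clozapine peak.

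Most members had a single peak. In the olanzapine library 69 of the 71 had 1 peak (97.2%, against 91.9% of other genes), Zfp36 had 2 and Zfp36l2 had 4. In the clozapine library 34 of the 46 had 1 (73.9%, against 61.7%), 10 had 2, Zfp423 had 4 and Zfp382 had 5. Zfp382 stands in overlapping gene models: its clozapine peaks and its olanzapine peak spread over 216 kb of chromosome 1 (88365286 to 88581073) with peaks of Zfp14 and Zfp566. Names on more than 1 chromosome were Zfp36l2 (6 and 7), with an exonic and a 3' UTR olanzapine peak on each, and Zfp14 (1 and 19), with a clozapine peak of 631 bp and 2.82-fold on each. Whether each of these names stands for 1 gene was not tested, and the counts for these names are uncertain.

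The 26 members named in both lists mostly had their peaks in different places. Only the peaks of Zfp36 (907 bp shared) and Zfp36l1 (49 bp shared) had bases in common, and no olanzapine peak of another member met any clozapine peak. Among all 2243 genes named on the same chromosome in both lists, the nearest peaks shared no base in 94.0%, so the 24 of 26 members were close to the background. In the other 24 the nearest peaks were 933 bp (Zfp84) to 179759 bp (Zfp37) apart, with a median gap of 11728 bp (12100 bp in other genes), and in 13 the gap was over 10000 bp. The olanzapine peak was the longer in 20 of the 26 (76.9%, against 85.6% of other genes), and 12 of the 26 olanzapine peaks (46.2%, against 25.3%) were at the 5' end of the gene, where no clozapine peak of a member was. In 10 genes the 2 peaks were of the same class, and in 8 of these both were exonic. The direction of the gene could be read from the authors' UTR annotation for 10 of the 26, and in all 10 the clozapine peak lay 3' of the olanzapine peak: Zfp14, Zfp52, Zfp84, Zfp143, Zfp438, Zfp444, Zfp512b, Zfp593, Zfp655 and Zfp706. In 9 of these 10 the olanzapine peak was in the 5' UTR class, which is the 5' end of the gene by definition, and in Zfp593 it was exonic. The order was the same in 582 of 615 other genes whose direction could be read (94.6%), so it was not particular to members.

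Examples show the range of these pairs. Zfp143, an activator at promoters and loop anchors, had a 5' UTR peak of 1109 bp and 4.32-fold in the olanzapine library (chromosome 1, 174701486 to 174702594) and an intronic peak of 171 bp and 4.74-fold 12579 bp further on in the clozapine library. Zfp444 had a 5' UTR olanzapine peak of 1307 bp and 5.98-fold and an intronic clozapine peak of 220 bp and 5.22-fold, 7311 bp apart. In both genes the longer peak was at the 5' end in the olanzapine library. Zfp438 (13500 bp apart) and Zfp131 (23401 bp apart) had the same arrangement, with 5.32- and 4.76-fold in Zfp438 and 4.87- and 5.73-fold in Zfp131 for olanzapine and clozapine. Zfp52 had a 5' UTR olanzapine peak (473 bp, 3.73-fold) and an exonic clozapine peak (194 bp, 3.44-fold) 26179 bp away. Zfp655 (570 bp, 3.55-fold, against 941 bp, 3.25-fold) and Zfp512b (428 bp, 3.66-fold, against 684 bp, 2.77-fold) were among the 6 with the longer peak in the clozapine library. Zfp91 had exonic peaks 32370 bp apart, of 2207 bp and 5.61-fold for olanzapine and 484 bp and 2.92-fold for clozapine.

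**Figure D4:**
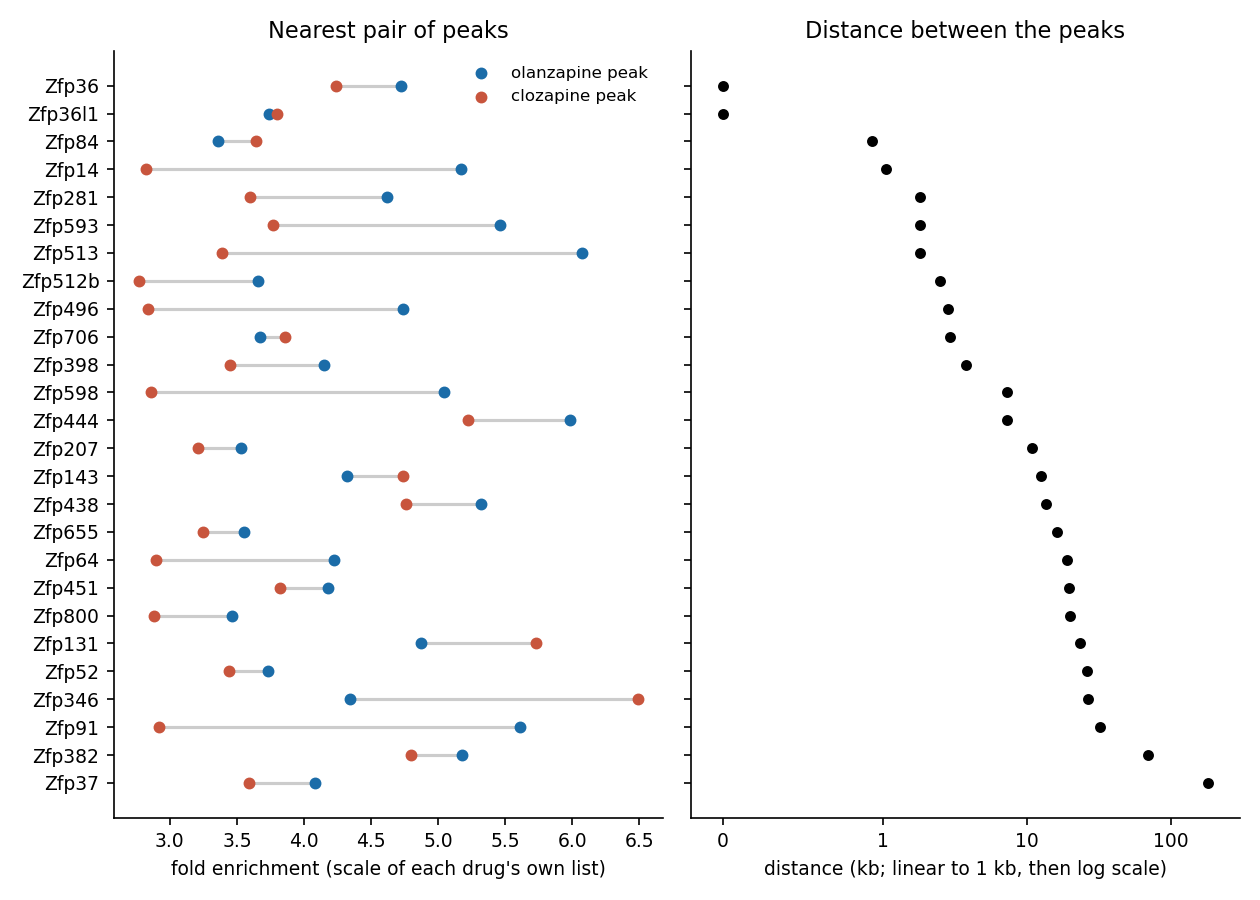
The 26 members with a peak in both libraries, ordered by the distance between the nearest pair of peaks. The left panel gives the fold enrichment of the olanzapine and the clozapine peak, each on its own list's scale, and the right panel the distance in kb. Zfp36 and Zfp36l1 are at 0, and the other 24 are between 933 bp and 179759 bp (Zfp37, whose peaks also name other genes).

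By role, the lists held 2 to 8 genes each, and their counts stand beside 26.8% (olanzapine) and 28.2% (clozapine) of all curated genes. Of the Zfp36 genes, CCCH proteins that bind AU-rich elements and speed mRNA decay, all 3 had an olanzapine and 2 a clozapine peak. Zfp36 had exonic peaks of 907 bp (4.72-fold, olanzapine) and 1405 bp (4.24-fold, clozapine), and the olanzapine peak lay whole within the clozapine peak on chromosome 1. Zfp36l1 had the longest member peak of each library, 3418 bp (3.74-fold) for olanzapine and 2568 bp (3.80-fold) for clozapine, both exonic. Zfp36l2 had olanzapine peaks alone, from 3.44- to 4.17-fold. Of 4 promoter and looping factors, Zfp143 and Zfp281 had peaks in both libraries, Zfp384 for olanzapine (5' UTR, 825 bp, 4.09-fold) and Zfp148 for clozapine. Zfp281, a GC-box factor, had exonic peaks 1800 bp apart, 346 bp and 4.62-fold for olanzapine and 170 bp and 3.60-fold for clozapine.

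Of 6 genes of RNA, ribosome and spindle factors, 3 had an olanzapine and 4 a clozapine peak, against 26.8% and 28.2% of all curated genes. Zfp598, a ubiquitin ligase that acts on collided ribosomes, had exonic peaks of 956 bp (5.04-fold) for olanzapine and 170 bp (2.86-fold) for clozapine. Zfp207, a spindle factor that binds Bub3, had exonic peaks of 444 bp (3.53-fold) for olanzapine and 561 bp (3.21-fold) for clozapine. Zfp593, an assembly factor of the large ribosomal subunit, had an exonic olanzapine peak (422 bp, 5.46-fold) and a 3' UTR clozapine peak (301 bp, 3.77-fold). Zfp622, of the same subunit's assembly, had clozapine peaks alone, of 170 bp each. Zfp106 and Zfp326 of this list had none. Both genes of ubiquitin and SUMO ligases, Zfp91 and Zfp451, had peaks in both libraries.

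None of 5 adipocyte regulators had an olanzapine peak and 2 had a clozapine peak, where 26.8% and 28.2% of all curated genes had one. Zfp423, which commits cells to the preadipocyte state in the mouse, and Zfp638, which acts in mouse adipocyte differentiation, had clozapine peaks, and Zfp467, Zfp516 and Zfp521 had none. The 4 peaks of Zfp423 were 3 intronic ones of 170 or 171 bp (3.12-, 3.85- and 4.80-fold) and an exonic one of 410 bp (2.87-fold) on chromosome 19. Those of Zfp638 were 170 bp long, exonic (3.49-fold) and in the 3' UTR (3.02-fold). Of these 6 peaks, the exonic peak of Zfp423 was thus the only one over 200 bp. Of 4 genes of imprinting and retroelement silencing, Zfp57, which keeps imprints in the mouse, had a 5' UTR olanzapine peak (709 bp, 4.12-fold) and the others none. Of 8 chromatin partners, Zfp518a had a 5' UTR olanzapine peak (1128 bp, 4.72-fold), and Zfp592 (452 bp, 2.90-fold) and Zfp532 (2 peaks of 170 bp), whose human counterparts share a complex, had clozapine peaks.

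In a list of KAP1 co-repressor and heterochromatin genes, more were named for olanzapine than for clozapine. Of 15 genes of KAP1 and heterochromatin, 7 had an olanzapine peak and 3 a clozapine peak, against 26.8% and 28.2% of all curated genes. Trim28, which encodes KAP1 itself, had an exonic olanzapine peak (804 bp, 4.46-fold) and no clozapine peak. Setdb1 had a 5' UTR olanzapine peak (440 bp, 3.30-fold) and an exonic clozapine peak (510 bp, 3.03-fold). Cbx3, a heterochromatin protein gene, had a 5' UTR olanzapine peak (2248 bp, 4.38-fold) and a 3' UTR clozapine peak (448 bp, 3.00-fold). In both genes the olanzapine peak was at the 5' end and the clozapine peak was not, as in 12 of the 26 members with both. Mbd3 (7.00-fold), Morc3 (6.15-fold) and Daxx (5.18-fold) had 5' UTR olanzapine peaks, Uhrf1 an intronic one (3.71-fold), and Hdac2 an exonic clozapine peak (4.14-fold).

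Members lay on every autosome but chromosome 14 and none on X. Chromosome 1 held 20 of the 91, 15 with an olanzapine peak (21.1% of the olanzapine members, against 12.3% of other genes) and 12 with a clozapine peak (26.1%, against 12.1%), and chromosome 4 held 10. With a limit of 500 kb between peaks, 27 members stood in 10 clusters. These held 15 of the 45 named for olanzapine alone (33.3%), 6 of the 20 named for clozapine alone (30.0%) and 6 of the 26 named for both (23.1%). Among the last 6 is Zfp14, whose olanzapine peak was on chromosome 19, outside its cluster on chromosome 1. No values of other genes stand beside these shares. The cluster with most members was on chromosome 4 (77509982 to 78240743) with Zfp282, Zfp398, Zfp746, Zfp775, Zfp777 and Zfp786, of which 5 had an olanzapine and 2 a clozapine peak. Zfp746, which encodes the Parkin substrate PARIS, a repressor of Ppargc1a, had an exonic olanzapine peak there (295 bp, 3.45-fold). Zfp398 had a peak in each library, exonic in both, 3804 bp apart. Clusters of 3 were on chromosome 1 (Zfp94, Zfp428 and Zfp575, and Zfp14, Zfp382 and Zfp566) and chromosome 7 (Zfp563, Zfp763 and Zfp870), and 6 more were pairs.

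Promoters of members had more CpG by median than those of all curated genes. Members were chosen by having a peak, and no other genes chosen by a peak stand beside them here or for the motifs below. What part that choice had in the difference was not tested. RefSeq promoters (GRCr8, 250 bases before to 50 after the gene start) were found for 76 of the 91 members. The CpG ratio is the number of CG divided by that expected from the C and G content. Its median was 0.776 in the 31 members with an olanzapine peak at the 5' end (interval of the median 0.684 to 0.857). It was 0.703 in the 29 with an olanzapine peak of another class (0.607 to 0.879) and 0.715 in the 16 with a clozapine peak alone (0.299 to 0.859). In 151 Zfp or Znf genes that were not members it was 0.661 (0.596 to 0.701), and in all 15165 curated genes 0.656 (0.648 to 0.663). The 151 can include genes that the lists name by an older symbol, such as Zfp605l1, which had a clozapine peak. A ratio of at least 0.6 was found in 80.6%, 79.3%, 62.5%, 57.6% and 54.9% of these promoters, in the same order. The clozapine group had the widest quartile range (0.416 to 0.828), with Zfp609 (0.142), Zfp523 (0.195) and Zfp831 (0.222) at the low end and Zfp238 (1.02), now named Zbtb18, at the high end. The intervals of the 3 groups of members overlapped. Those of the groups with another olanzapine peak and with a clozapine peak alone also held the medians 0.661 and 0.656 of the genes compared.

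Motifs were searched on both strands of the same windows. The GC box GGGCGG was in 58.1% of promoters of members with a 5' end olanzapine peak (interval 40.8 to 73.6), 51.7% of those with another olanzapine peak and 37.5% of those with a clozapine peak alone (18.5 to 61.4), against 49.8% of all curated genes. CGCG, which can overlap other motifs, was in 75.0% of the 76 promoters (64.2 to 83.4). It was in 57.6% of Zfp or Znf genes that were not members (49.6 to 65.2) and 55.2% of all curated genes. The ETS motif CCGGAAG was in 18.4% of the 76 (11.3 to 28.6). It was in 21.9% of Zfp or Znf genes that were not members and 13% of all curated genes (1964 of 15165). CCAAT was in 38.2% of the 76, against 49.7% and 38.2%. TATAAA, GCGCATGC and TGACGTCA were in 10.5%, 7.89% and 5.26% of the 76, against 11.8%, 3.79% and 2.55%. Of the promoters printed above, Zfp444, Zfp143, Zfp52 and Zfp386 held the GC box in this window and Zfp317 did not, and Zfp317 held TATAAA. A match is a description of letters only.

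Genes of other zinc finger families are given as counts, since most families are small. These counts stand beside 26.8% (olanzapine) and 28.2% (clozapine) of all curated genes. Of 41 curated Zbtb genes, which pair a BTB domain with fingers, 14 had an olanzapine and 13 a clozapine peak. Of 16 Klf genes the counts were 8 and 7, of 15 Zc3h genes with CCCH fingers 6 and 7, and of 24 Zdhhc genes, palmitoyltransferases with another kind of zinc-binding domain, 6 and 6. Zkscan (6 genes) had 3 and 2, Zscan (8 genes) 1 and 0, and Zmym (5 genes) 3 and 2. Of the 9 genes Sp1 to Sp9, 2 and 2 had a peak. Whether the families differ was not tested.

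In the authors' gene ontology tables, 53 of the 71 olanzapine members and 35 of the 46 clozapine members were listed under at least 1 term. Metal ion binding held 96.2% of these olanzapine and 94.3% of these clozapine members, against 732 of the 3629 and 836 of the 3973 genes in the tables. DNA binding held 37.7% and 34.3%, against 10.9% and 10.7%, and the nucleus 60.4% and 60.0%, against 44.2% and 43.0%. Members were chosen by zinc finger names, so their shares for metal ion and DNA binding describe that choice and not the peaks. RNA binding held 5 olanzapine and 7 clozapine members (9.43% and 20.0%, against 14.3% and 13.9%).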

How the data were processed

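H3K4me2 ChIP-seq of rat liver gave 1 library each for olanzapine, clozapine and vehicle. According to the methods of the study, BWA was run on the cleaned reads with Rnor_6.0 as the genome, and the authors used the reads that mapped once and with no mismatch. The peak caller, its threshold, the control and the annotation version are not given in the sources used here. The authors' deposited lists give each peak's length, fold enrichment (a ratio), −log10 p and −log10 q, a class and gene names. The authors' deposited gene ontology tables give a count of genes per term, and their p-values were not used. The lists hold no read numbers, so the depth behind a peak is unknown.

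Members and gene lists were chosen with earlier results of these data known. Rows were split at semicolons, and names that a spreadsheet had turned into dates (9 olanzapine, 22 clozapine) were left out. Symbols were matched to a RefSeq names table (GRCr8), where all 91 members were found, 90 of them as curated protein-coding genes and 3 under another current symbol, and promoters came from the same build. Positions are those of the lists, counted from 1. Genes named were those with peaks in both libraries, the 10 per library with the highest −log10 p among peaks over 200 bp, those with 3 or more peaks, and members of role lists. Zfp868, the genes of clusters, those with the recurring fold enrichment and those at the ends of the promoter range were named after their values were seen. Shares carry 95% Wilson intervals and medians binomial intervals. Directions read from UTR annotation matched the GRCr8 strand for 28 of 30 members. Steps were tested on simulated data. Alternatives were other limits on q, fold, length, class and overlap. The work was done in Python 3.11.15 with scipy 1.17.1, pandas 2.3.3 and numpy 2.4.6, and figures were drawn with matplotlib 3.10.9.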

Additional observations from a re-analysis of the deposited data

Results flagged for a closer look

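The intergenic class, which was left out of the gene counts, also named zinc finger genes as neighbours: 96 olanzapine and 253 clozapine peaks did so. Outside the intergenic class stood 5323 of the 7128 olanzapine peaks and 9290 of the 19449 clozapine peaks. The clozapine list thus held far more intergenic peaks, and the 253 were a smaller share of them than the 96 were for olanzapine. Over both libraries 58 further Zfp names stood in intergenic rows only. No vehicle list was analysed here, so these numbers have no vehicle value beside them, and what sets them was not tested.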

How the results depend on the processing

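Of 59 alternative values, 33 stayed within the limits used here and 26 moved. The limits were a fixed ratio for counts and the interval of the main value for shares and medians. Some alternatives could change nothing. All members have Zfp names, none was lost with chromosomes 1 to 20 and X, and a clozapine 5' end share of 0 stays 0 in any subset. With −log10 q of at least 5, 6 members had an olanzapine peak, 11 a clozapine peak and 0 both, the 5' end share of olanzapine peaks was 66.7%, the intronic share 0% (olanzapine) and 83.3% (clozapine), and the exonic clozapine share 16.7%. With a fold enrichment of at least 5 the counts were 12, 5 and 1, the 5' end share of olanzapine peaks 58.3% and the intronic clozapine share 66.7%. With peaks longer than 200 bp, 69 members had an olanzapine, 21 a clozapine peak and 14 both, and the exonic and intronic clozapine shares were 59.1% and 22.7%. With upstream, 5' UTR and exonic classes the counts were 64, 24 and 13. With intergenic peaks counted they were 117, 109 and 77. For peaks longer than 200 bp, the olanzapine share was 25.4% of curated zinc finger genes, against 25.8% of other curated genes. The clozapine shares at that length were 7.09% and 14.3%. At the other settings no values of all genes stand beside the counts, so whether the moves were particular to members is not known. With exonic peaks alone the median clozapine length was 209 bp, and 0 olanzapine and 0 clozapine members had 3 or more peaks. Olanzapine peaks of members near a clozapine peak of the same member numbered 4 with a gap of at most 1000 bp and 1 with an overlap of at least 50% of the shorter peak, against 2. Fewer peaks enter each stricter setting, and other causes were not tested. Settings added after seeing the data were rows that name a single gene (68, 44 and 25 members) and the clozapine list without the recurring fold enrichment (43 members, 26 in both, intronic share 39.6%). Fingers per protein were not run, since no protein sequences were used. No paired analysis was possible because each drug had 1 library. The limits are 1 library per drug, 2 lists called separately, lists without the reads behind each peak, and gene classes of the authors' annotation.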
